A study of Mus musculus with 15 samples.

Results

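The liver response to carbon tetrachloride (CCl4) by itself, before any ethanol or tube feeding, was read from 4 of the study's 15 messenger RNA libraries. They are the libraries labelled day 0, chosen by treatment and time: OO libraries 1 and 2 and CCl4 libraries 3 and 4. All are whole liver from adult male mice of strain C57BL/6, with no engineered allele named. CCl4 animals had been injected intraperitoneally with 0.2 ml/kg, 2 times a week for 6 weeks, to produce chronic fibrosis. The label OO is not spelled out and is kept as given, and no untreated liver is among the groups used here. The labels do not give the interval between the last injection and sampling, nor do they say that each library is a separate animal. The p-values rest on the spread within groups over all 15 libraries, not over these 4 alone, and that spread may be technical. OO libraries kept on chow until day 23 (library 5) and day 20 (library 12) served as a second look at control levels.

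CCl4 is oxidised by cytochrome P450 enzymes, chiefly CYP2E1, to a radical that kills hepatocytes around the central vein. Repeated dosing is a classical model of scarring, in which stellate cells become collagen-producing myofibroblasts and macrophages clear the debris. Hepatocytes also make the acute-phase proteins, plasma proteins whose genes are driven by interleukin-6 and interleukin-1 through STAT3, NF-kappaB and C/EBP factors. Along the lobule, periportal hepatocytes make urea and break down amino acids, while a ring of cells at the central vein makes glutamine from leftover ammonia.

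Gene counts were 11448618 and 13115579 in the OO libraries and 16630912 and 10347844 in the CCl4 libraries. Reads aligning to more than 1 place made up 27.5% and 28.8% of the reads listed in the OO libraries and 23.1% and 19% in the CCl4 libraries. The 4 libraries carry 4 different lane labels, so lane and treatment cannot be told apart among them. The OO pair stood further apart than the CCl4 pair, with 1.02% and 0.508% of genes, respectively, differing more than 2-fold within the pair. Pairs within the ethanol groups of day 20, which also enter the spread behind the p-values, ranged from 1.59% to 5.89%. The CCl4 chow pair of day 20 was at 2.22%. All 10 hepatocyte markers were expressed. By edgeR 0 of the 10 were called, 7 had an unadjusted p under 0.05 (17% of all genes) and DESeq2 called 2 (5.5% of all genes), with albumin (Alb) at 36595 and 42669 CPM in OO and 56118 and 52818 CPM in CCl4.

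Of 14778 genes tested, 304 differed between CCl4 and OO livers at an adjusted p under 0.05 (2.06%; edgeR's quasi-likelihood test, Benjamini-Hochberg adjustment over all genes). CCl4 livers were higher for 140 genes (0.947%) and lower for 164 (1.11%). These shares of all genes are to be set beside the edgeR list counts at day 0 below. The change was over 2-fold for 113 of the higher and 133 of the lower genes, and over 8-fold for 20 and 39. The median log2 change of all genes was 0.0081. For every called gene the 2 groups' libraries did not overlap, but 30.5% of all tested genes lay apart upward in the same way and 29% downward. Both later OO chow libraries lay below the CCl4 libraries for 115 of the 140 higher genes, and above them for 156 of the 164 lower genes. Leaving out a library cut the calls to 121 without OO library 1 (0.819% of genes), 120 without OO library 2 (0.813%), 54 without CCl4 library 3 (0.366%) and 52 without CCl4 library 4 (0.353%). Levels below are counts scaled to TMM-normalised library size (CPM), n = 2 libraries per group, and log2 changes carry their standard error (SE).

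**Figure D1:**
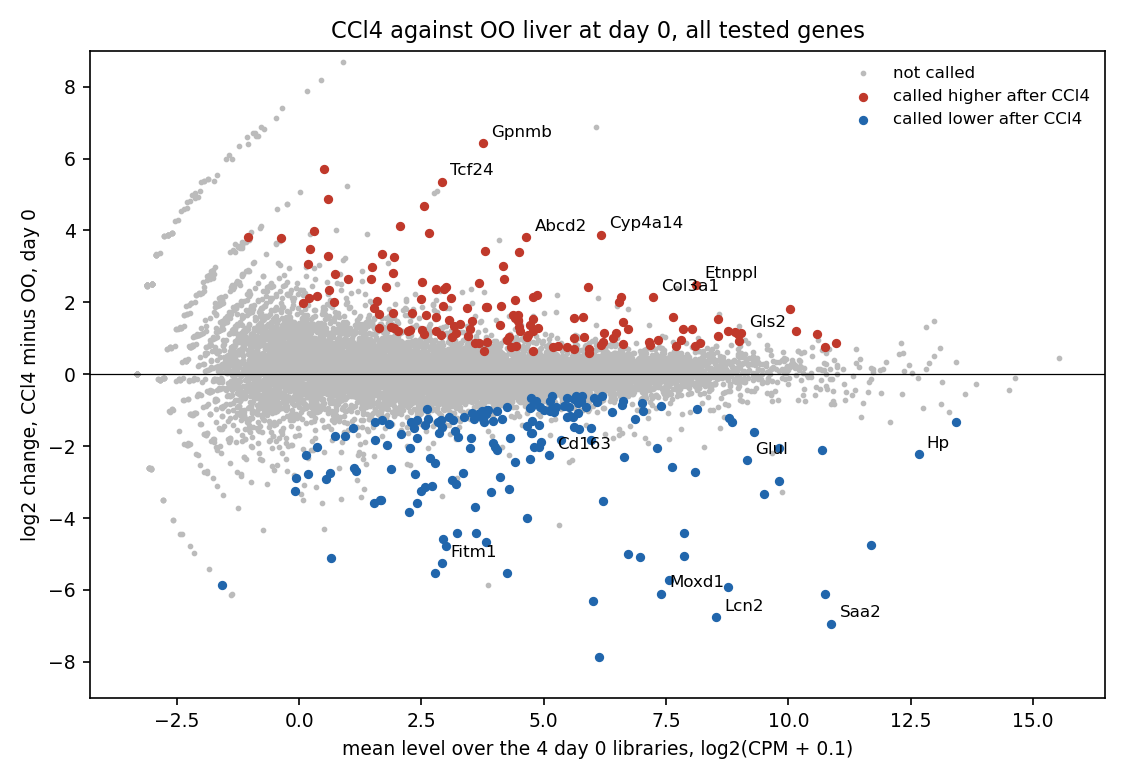
Log2 change between CCl4 and OO livers at day 0 (vertical axis) against the mean level over the 4 libraries as log2(CPM + 0.1) (horizontal axis), with 1 point per tested gene. The 140 genes called higher are red and the 164 called lower are blue. The acute-phase genes Saa2, Lcn2 and Hp are among the called genes at the lower right, and Gpnmb stands at the top among the called genes.

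Acute-phase genes had more calls than any other of the 50 lists, and all were lower. Of 24 acute-phase genes tested, 13 were lower after CCl4 and 0 higher, against 1.11% of all genes called lower. The log2 change was below 0 for all 24, and its median was −2.15. Summed over the list, the level was 109889 and 69101 CPM in OO libraries 1 and 2 and 34461 and 33307 CPM in CCl4 libraries 3 and 4. The later OO chow libraries held 53275 and 65150 CPM, so every OO library lay above every CCl4 library.

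The regulatory letters in front of the most reduced acute-phase genes are shown because the serum amyloid A and orosomucoid genes moved together. Each stretch is 60 bases, read 5′ to 3′ in the direction of the gene, from RefSeq promoter windows on GRCm38.p6 that run from 250 bases before to 50 bases after the gene start. Capitals mark a match to the C/EBP-type letters TTGCNNAA on either strand.
Saa1: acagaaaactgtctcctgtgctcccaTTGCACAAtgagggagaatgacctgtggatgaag
Saa2: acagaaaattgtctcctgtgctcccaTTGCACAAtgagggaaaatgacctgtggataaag
Saa3: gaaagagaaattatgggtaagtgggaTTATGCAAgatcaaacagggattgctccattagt
Orm2: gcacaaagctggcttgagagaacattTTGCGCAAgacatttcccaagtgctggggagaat
Orm3: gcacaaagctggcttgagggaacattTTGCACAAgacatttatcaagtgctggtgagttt
Lcn2: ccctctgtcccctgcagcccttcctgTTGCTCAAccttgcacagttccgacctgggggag

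The Saa1 stretch is chr7:46743129-46743188 on the minus strand, and that of Saa2 is chr7:46751624-46751683 on the plus strand. Saa3 is shown at chr7:46715742-46715801, minus strand, where the match lies on the opposite strand. The Orm2 and Orm3 stretches are chr4:63362303-63362362 and chr4:63356011-63356070, both on the plus strand, and the Orm2 match reads the same on both strands. Lcn2 is shown at chr2:32387922-32387981 on the minus strand. These letters were found in the windows of 12 of the 20 acute-phase genes that matched RefSeq (60%) and in 7 of the 11 matched genes called lower (63.6%). Of all 27025 genes with a window, 12.2% held them. The uncalled acute-phase genes Saa4, Fga, Fgb, Cp and Mt2 also held the letters. The stretches of Saa1 and Saa2, and those of Orm2 and Orm3, are near-identical but count as separate genes. The STAT-type letters TTCNNNGAA, searched on both strands, were in the windows of 4 of the 20 genes (20%) and of 9.55% of all genes. Among the 11 matched genes called lower, 1 held the STAT-type letters (9.09%). A match is only a run of letters and does not show that a factor binds there.

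Among the serum amyloid A genes, which encode lipoprotein-borne proteins of inflammation, Saa2 stood at 5604 and 1833 CPM in the OO libraries and at 35.4 and 25.2 CPM in the CCl4 libraries. Its neighbour Saa1 stood at 4797 and 1979 CPM in OO and at 49.7 and 47.6 CPM in CCl4. OO library 1 was the highest for both genes, and the lower OO library still lay far above both CCl4 libraries. The log2 change was −6.93 (SE 0.95, adjusted p = 0.00382) for Saa2, or 122-fold lower, and −6.12 (SE 0.77, adjusted p = 0.00214) for Saa1, or 69.6-fold lower. Saa3, which is also made by macrophages and other non-hepatocyte cells, was at 406 and 81.1 CPM in OO and at 9.14 and 4.94 CPM in CCl4 (log2 change −5.08, SE 0.87, adjusted p = 0.0117). The later OO chow libraries held 11.3 and 13.7 CPM of Saa3, near the CCl4 level, and 560 and 1613 CPM of Saa2, far above it. Saa4, the constitutive member, was at 471 and 517 CPM in OO and 119 and 124 CPM in CCl4 and did not pass (adjusted p = 0.0627). Saa1 and Saa2 are near-identical copies, so the split of reads between them is uncertain. Without CCl4 library 3 or 4 the calls for Saa1, Saa2 and Saa3 were lost, and that for Saa3 also without OO library 1. The highest adjusted p in those fits was 0.0554, 0.0786 and 0.173.

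The orosomucoids, acid glycoproteins that carry drugs in plasma, fell as a group of 3. Orm2 was at 1196 and 520 CPM in OO and at 15.3 and 13.1 CPM in CCl4, a log2 change of −5.91 (SE 0.50, adjusted p = 0.000237). Orm1 was at 3499 and 1822 CPM in OO and at 630 and 617 CPM in CCl4 (log2 change −2.09, SE 0.26, adjusted p = 0.002). Both groups of libraries stood clear of each other for both genes, and both calls held whichever library was left out. Orm3 fell from 49.8 and 24.3 CPM to 1.06 and 0.396 CPM (adjusted p = 0.0042), a call lost without CCl4 library 3 or 4 (highest adjusted p = 0.0682). These 3 genes are close copies, so their separate values are uncertain.

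Proteins that bind haem, haemoglobin and iron-carrying siderophores followed. Lcn2, which encodes the siderophore-binding lipocalin 2, was at 1174 and 277 CPM in OO and at 8.58 and 4.55 CPM in CCl4. That is a log2 change of −6.76 (SE 0.81, adjusted p = 0.00158), or 108-fold lower, although OO library 1 was far above OO library 2. Haptoglobin (Hp), at chr8:109575128-109579172 on mm10, was at 12847 and 8426 CPM in OO and at 2386 and 2194 CPM in CCl4 (log2 change −2.22, SE 0.24, adjusted p = 0.000965). The calls for Lcn2 and Hp held whichever library was left out. Hemopexin (Hpx) fell from 20072 and 11114 CPM to 6506 and 6016 CPM (adjusted p = 0.017), and its call was lost without library 3, 4 or 1 (highest adjusted p = 0.197).

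Of the remaining acute-phase genes, 4 were lower. Serpina3n, a serine protease inhibitor, was at 2254 and 935 CPM in OO and at 208 and 203 CPM in CCl4 (adjusted p = 0.00974). Apcs, the serum amyloid P component, fell from 690 and 258 CPM to 71.8 and 72.4 CPM (adjusted p = 0.0161). Lrg1, a leucine-rich glycoprotein, fell from 461 and 210 CPM to 58.5 and 54.7 CPM (adjusted p = 0.0444). Metallothionein 1 (Mt1), which binds zinc and copper, fell from 572 and 313 CPM to 19.5 and 22.2 CPM (adjusted p = 0.00959). In all 4 the CCl4 libraries lay close together and OO library 1 was the highest. These calls were lost in some fits that left out a library: Mt1 without 3 or 4, Serpina3n and Apcs without 3, 4 or 1, and Lrg1 without each of the 4 in turn, with highest adjusted p of 0.138, 0.131, 0.177 and 0.277. The fibrinogen chains Fga, Fgb and Fgg did not pass, at log2 changes of −1.04, −0.83 and −0.93, and neither did C-reactive protein (Crp), at −1.18 with an adjusted p of 0.0556.

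**Figure D2:**
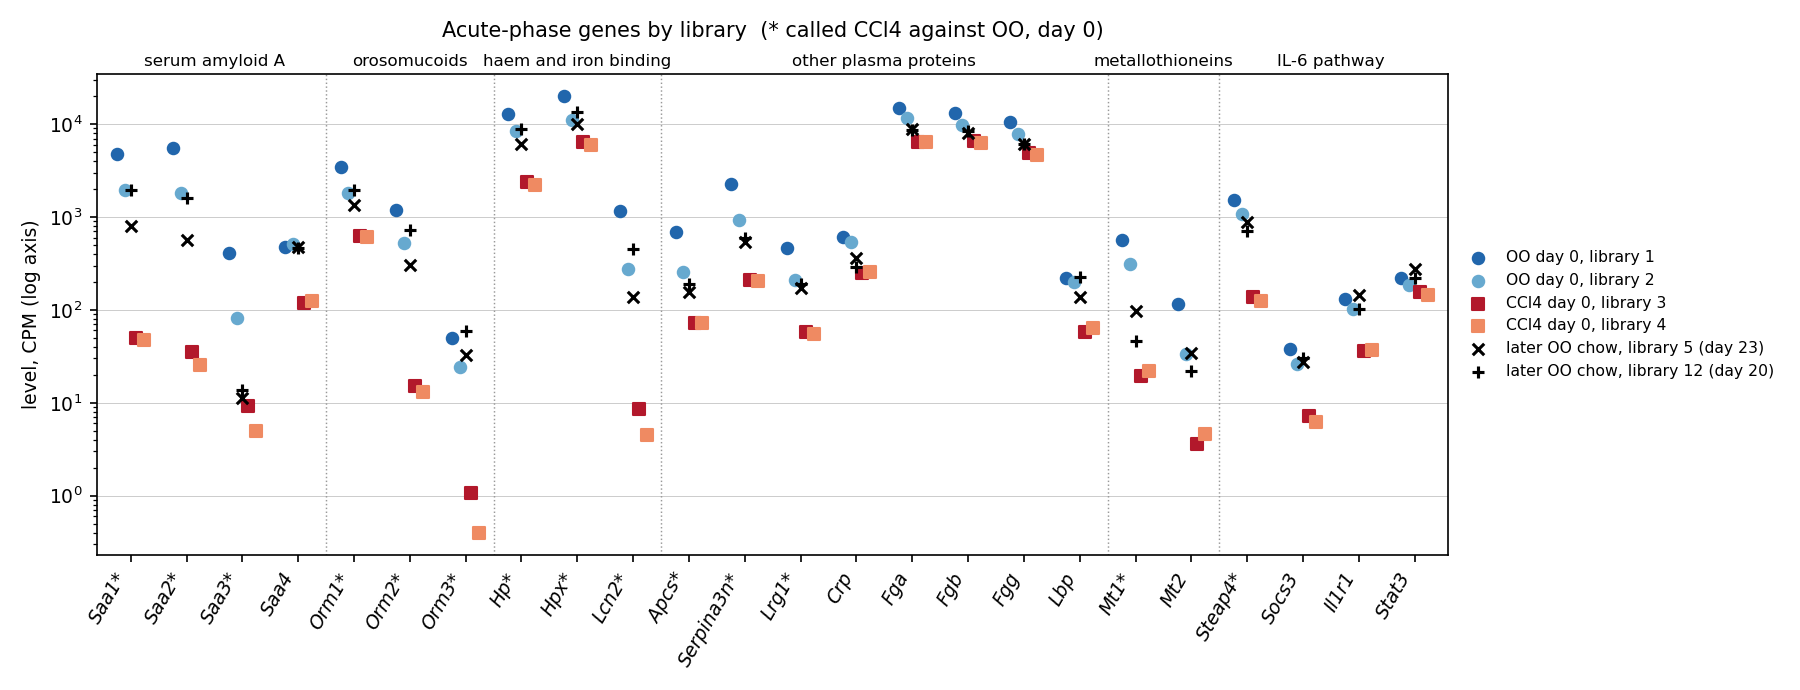
Levels of acute-phase and interleukin-6 pathway genes (CPM, log axis) in the 4 day 0 libraries and the 2 later OO chow libraries, with 1 symbol per library and asterisks on genes called at day 0. The CCl4 squares lie below all OO symbols for every gene drawn, and the gap is widest for Saa1, Saa2, Orm2 and Lcn2.

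Set against the later OO chow libraries in place of the day 0 controls, 8 of the 24 acute-phase genes were lower and 0 higher, with a median log2 change of −1.42. In that comparison 3.17% of all genes were called, 1.02% higher and 2.16% lower. Saa2 was still lower (log2 change −4.97, adjusted p = 0.0109), as were Lcn2 (−5.22, 0.00423), Orm2 (−5.05, 0.000673) and Hp (−1.68, 0.00359). Saa3 was not called there (log2 change −0.79, adjusted p = 0.664). Leaving out OO library 1, OO library 2, CCl4 library 3 or CCl4 library 4 left 8, 13, 4 and 4 of the 24 lower, where 0.44%, 0.596%, 0.203% and 0.197% of all genes were lower.

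In the pathway upstream, interleukin-6, interleukin-1 and STAT3 signalling, 1 of 21 genes was lower and 0 higher, with a median log2 change of −0.51. Steap4, a metalloreductase gene known to respond to these cytokines, fell from 1541 and 1079 CPM to 139 and 124 CPM (log2 change −3.32, SE 0.69, adjusted p = 0.0327). Its call was lost whichever of the 4 libraries was left out (highest adjusted p = 0.252), and the later OO chow libraries held 874 and 709 CPM. Socs3, the feedback inhibitor of STAT3, was at 38.2 and 25.9 CPM in OO and at 7.14 and 6.23 CPM in CCl4 (log2 change −2.25, adjusted p = 0.125). The interleukin-1 receptor Il1r1 was at 131 and 101 CPM in OO and 36 and 37.1 CPM in CCl4 (adjusted p = 0.177). Neither passed, although their libraries do not overlap. Stat3 itself was at 218 and 187 CPM in OO and at 156 and 143 CPM in CCl4 (adjusted p = 0.52). In the complement list, another product of the hepatocyte, 0 of 24 genes were called by edgeR, with 10 at an unadjusted p under 0.05 (17% of all genes) and 5 called by DESeq2 (5.5% of all genes), and the median was −0.42. Against the later OO chow libraries edgeR called 4 of the 24 lower, where 2.16% of all genes were lower. Complement C3 was at 17384 and 12046 CPM in OO and at 9763 and 10481 CPM in CCl4 (adjusted p = 0.443).

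Among 20 male-biased liver genes that depend on pulsed growth hormone, 3 were lower (1.11% of all genes) and 0 higher, with a median of −0.36. Moxd1, a copper monooxygenase related to dopamine beta-hydroxylase, was at 376 and 285 CPM in OO and at 4.76 and 4.85 CPM in CCl4. Its log2 change was −6.10 (SE 0.61, adjusted p = 0.000647), or 68.8-fold lower, and the later OO chow libraries were at 144 and 97.1 CPM. Mup1, a major urinary protein that carries pheromones, fell from 297 and 440 CPM to 6.01 and 8.21 CPM (log2 change −5.71, SE 0.67, adjusted p = 0.0013). Both calls held whichever library was left out. Cyp7b1, the oxysterol 7-alpha-hydroxylase, fell from 675 and 646 CPM to 261 and 265 CPM (adjusted p = 0.0418). That call was lost without each of the 4 libraries in turn (highest adjusted p = 0.271), and the later OO chow libraries held 250 and 229 CPM, the level of the CCl4 libraries. No other gene of the list was called. The groups lay apart downward for 10 of the 20 and upward for 3, against 29% and 30.5% of all genes. An unadjusted p under 0.05 was found for 6 (17% of all genes). Elovl3 overlapped, with 199 and 342 CPM in OO and 314 and 304 CPM in CCl4.

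The Mup family was looked at as a whole after its values had been seen. Of 18 tested members, 10 were lower (1.11% of all genes), 0 higher and 17 negative, with a median log2 change of −4.06. Mup7 fell from 5650 and 7022 CPM to 187 and 289 CPM (adjusted p = 0.0102). Mup20, the male pheromone darcin, was at 1848 and 3031 CPM in OO and at 2066 and 1991 CPM in CCl4. Mup3 was at 5618 and 6531 CPM in OO and at 4117 and 4203 CPM in CCl4 (adjusted p = 0.505). Neither of these was called, and the groups overlapped for Mup20. Summed over the family, the levels were 15457 and 20546 CPM in OO, 6614 and 6821 CPM in CCl4 and 12562 and 6834 CPM in the later OO chow libraries. Most Mup genes are near-identical copies, and reads aligning to several places were not counted for any gene, so single values are uncertain. The share of such reads was larger in the OO libraries, and its part in the result was not tested.

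The lower pericentral genes included glutamine synthetase. Of 20 pericentral genes, 4 were lower and 1 higher, with a median of −0.31. Glutamine synthetase (Glul), at chr1:153899944-153909723, was at 886 and 1016 CPM in OO and at 178 and 183 CPM in CCl4. The log2 change was −2.40 (SE 0.31, adjusted p = 0.00249), or 5.26-fold lower, with the later OO chow libraries at 1125 and 1059 CPM. Ornithine aminotransferase (Oat), which feeds the same pathway, fell from 912 and 976 CPM to 359 and 262 CPM (log2 change −1.60, SE 0.26, adjusted p = 0.00974). Rhbg, an ammonium transporter of the ring, fell from 13.7 and 14.9 CPM to 6.39 and 6.23 CPM (adjusted p = 0.038). Slc13a3, a dicarboxylate transporter, fell from 39.2 and 30.8 CPM to 3.51 and 4.25 CPM (log2 change −3.18, SE 0.50, adjusted p = 0.00779). For all 4 genes every OO library, early or late, lay above both CCl4 libraries. Set against the later OO chow libraries, all 4 were again lower, with adjusted p between 0.00186 for Glul and 0.0306 for Rhbg.

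The glutathione transferase Gstm3 was the 1 pericentral gene called higher, at 17.4 and 19.8 CPM in OO and at 104 and 98.4 CPM in CCl4 (log2 change 2.44, SE 0.46, adjusted p = 0.0204). Later OO chow library 12 held 64.9 CPM of Gstm3, and library 5 held 17.9 CPM. Cyp2e1, the enzyme that activates CCl4, was at 3470 and 4065 CPM in OO and at 2255 and 2038 CPM in CCl4 and did not pass (adjusted p = 0.426). Cyp1a2, Axin2 and Lgr5, which depend on Wnt signals from the central vein, were not called, at log2 changes of 0.08, 0.30 and −0.53. Calls for Glul and Slc13a3 were lost without library 3 or 4 (highest adjusted p 0.0553 and 0.124), that for Oat without 3, 4 or 2 (0.148), and those for Rhbg (0.248) and Gstm3 (0.162) without each of the 4 in turn.

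Called periportal genes were all higher. Of 18 periportal genes, 3 were higher and 0 lower (median 0.65), against 0.947% of all genes called higher. Glutaminase 2 (Gls2), the periportal enzyme that releases ammonia from glutamine, was at 312 and 342 CPM in OO and at 707 and 731 CPM in CCl4. Its log2 change was 1.14 (SE 0.14, adjusted p = 0.00239), the call held whichever library was left out, and the later OO chow libraries were at 332 and 268 CPM. Etnppl, which breaks down phosphoethanolamine, rose from 69.2 and 97.5 CPM to 473 and 467 CPM (log2 change 2.49, SE 0.55, adjusted p = 0.0429). The mitochondrial aldehyde dehydrogenase Aldh1b1 rose from 102 and 97 CPM to 306 and 293 CPM (log2 change 1.59, SE 0.27, adjusted p = 0.0112). Glul and Gls2, opposite ends of glutamine handling, were therefore changed in opposite directions.

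In the list for the urea cycle and amino acid breakdown, 2 of 23 genes were higher and 0 lower, while 21 of 23 were positive and the median was 0.59. The alanine-glyoxylate aminotransferase Agxt rose from 238 and 250 CPM to 527 and 501 CPM (adjusted p = 0.0102). The aspartate aminotransferase Got1 rose from 148 and 125 CPM to 318 and 331 CPM (log2 change 1.25, adjusted p = 0.00974). Later OO chow held 254 and 203 CPM of Got1, and against it the log2 change was 0.51 (adjusted p = 0.21). Carbamoyl phosphate synthetase (Cps1), the entry enzyme of the urea cycle, was at 6401 and 6764 CPM in OO and at 10998 and 10906 CPM in CCl4 and did not pass (adjusted p = 0.156). Homogentisate dioxygenase (Hgd) was likewise positive, at a log2 change of 0.71 with an adjusted p of 0.0608. The calls for Agxt (highest adjusted p 0.105), Aldh1b1 (0.0963) and Etnppl (0.248) were lost without each of the 4 libraries in turn, and that for Got1 (0.0963) without 3, 4 or 2. The summed level of the list was 17076 and 18298 CPM in OO, 28017 and 27553 CPM in CCl4 and 18849 and 16100 CPM in the later OO chow libraries.

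**Figure D3:**
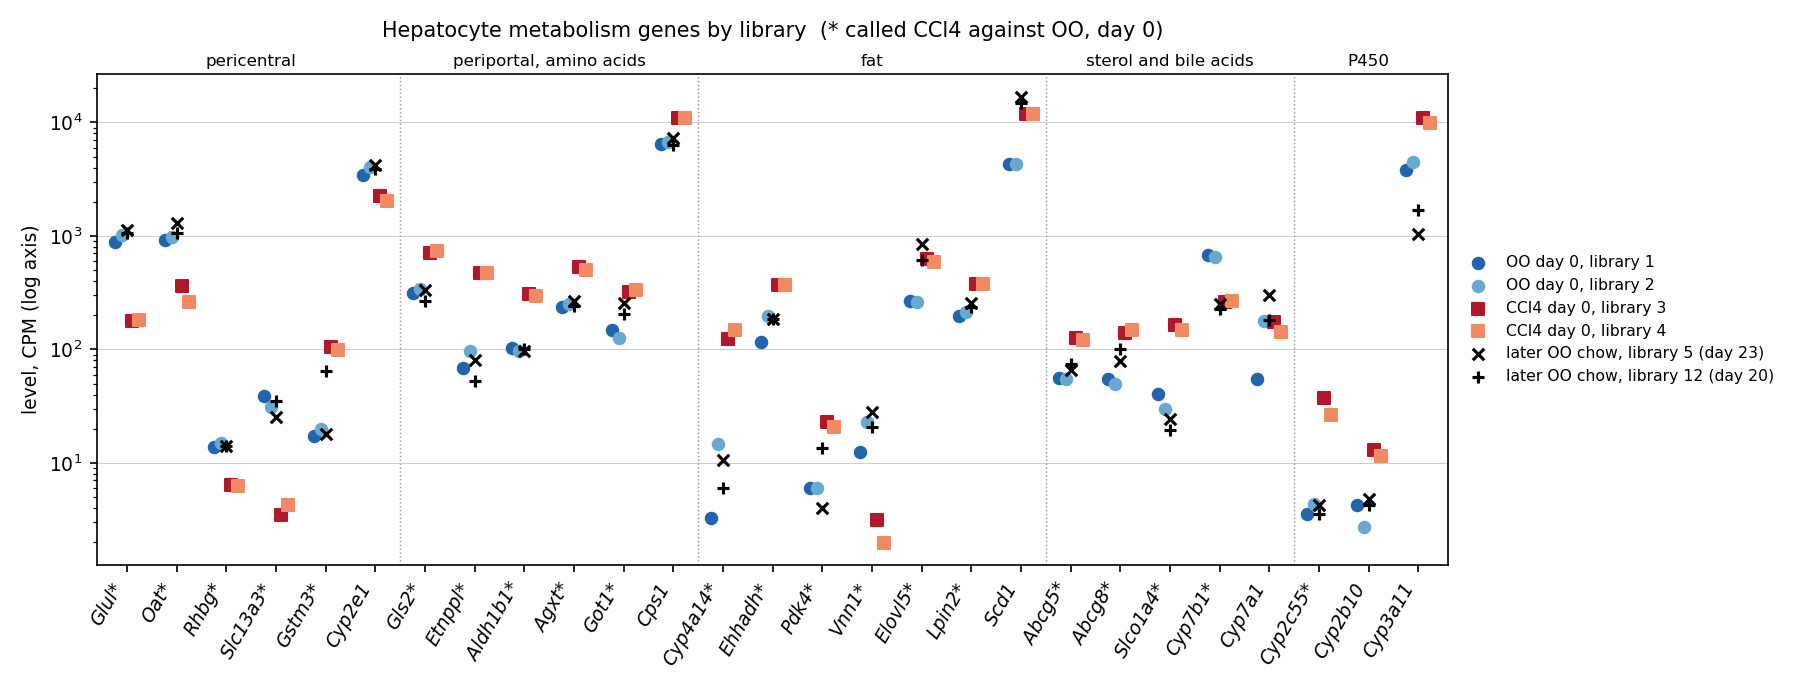
Levels of hepatocyte metabolism genes (CPM, log axis) in the 4 day 0 libraries and the 2 later OO chow libraries, with 1 symbol per library and asterisks on genes called at day 0. Glul, Oat, Rhbg and Slc13a3 are lower in both CCl4 libraries than in all OO libraries, and Gls2, Etnppl and Cyp2c55 are higher. For Elovl5 and Scd1 the later OO chow libraries lie with or above the CCl4 libraries, not with the day 0 controls.

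Fatty acid breakdown genes, many driven by the receptor PPARA, gave 3 higher and 1 lower gene of 26 (median 0.30). Cyp4a14, an omega-hydroxylase and a classical PPARA target, was at 3.3 and 14.8 CPM in OO and at 123 and 148 CPM in CCl4 (log2 change 3.89, SE 0.81, adjusted p = 0.033). Ehhadh, the peroxisomal bifunctional enzyme, rose from 115 and 195 CPM to 367 and 371 CPM (adjusted p = 0.0284). Pdk4, which restrains pyruvate oxidation, rose from 6.06 and 5.99 CPM to 23 and 20.8 CPM (adjusted p = 0.0487). Vnn1, a pantetheinase and likewise a known PPARA target, fell from 12.6 and 22.8 CPM to 3.13 and 1.98 CPM (adjusted p = 0.0104). Of the 26 genes 23 were positive and 3 negative, and Vnn1 had the lowest log2 change of the list, −2.75. DESeq2 called 7 higher and 1 lower (2.9% and 2.6% of all genes). OO library 1 was the lowest for Cyp4a14 and Ehhadh. Cyp4a14 and Pdk4 lost their call without each of the 4 libraries in turn (highest adjusted p 0.196 and 0.242), Ehhadh without 3, 4 or 1 (0.174) and Vnn1 without 3, 4 or 2 (0.131). Among the 12 higher genes with the largest change was Abcd2, a peroxisomal importer of very long-chain fatty acids, at chr15:91145871-91191799. It was at 3.03 and 3.51 CPM in OO and at 49 and 43.7 CPM in CCl4 (log2 change 3.82, SE 0.27, adjusted p = 7.45e-05), and its call held whichever library was left out. The later OO chow libraries held 13.8 and 8.85 CPM, between the groups.

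In fat synthesis the later controls stood apart from those of day 0. Of 27 genes of lipogenesis and lipid droplets, 2 were higher and 0 lower (median 0.50). The fatty acid elongase Elovl5 was at 268 and 260 CPM in OO and at 622 and 593 CPM in CCl4 (log2 change 1.20, SE 0.14, adjusted p = 0.001), and this call held whichever library was left out. The later OO chow libraries held 845 and 616 CPM, and against them the log2 change was −0.25 (adjusted p = 0.367). The phosphatidate phosphatase Lpin2 rose from 198 and 213 CPM to 378 and 380 CPM (adjusted p = 0.0432), a call lost without each of the 4 libraries in turn (highest adjusted p = 0.229). Stearoyl-CoA desaturase Scd1 was at 4272 CPM in each OO library, at 11872 and 11920 CPM in CCl4 and at 16878 and 14736 CPM in later OO chow, and did not pass (adjusted p = 0.207). Fatty acid synthase (Fasn) overlapped between groups, at 658 and 871 CPM in OO and 858 and 879 CPM in CCl4. Against the later OO chow libraries edgeR called 0 of the 27 genes, 5 had an unadjusted p under 0.05 (17.6% of all genes), and the median was −0.26.

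Transport of sterols and bile acids included 3 higher genes and 1 lower gene of 21 (median 0.09). Abcg5 and Abcg8 encode the paired subunits of the exporter that moves cholesterol into bile. Abcg5 rose from 55.5 and 54.6 CPM to 125 and 120 CPM (log2 change 1.15, SE 0.19, adjusted p = 0.0112). Abcg8 rose from 55.2 and 49.3 CPM to 139 and 148 CPM (log2 change 1.46, SE 0.24, adjusted p = 0.0104). These subunit genes lie head to head in the genome and rose together, though each call was lost whichever of the 4 libraries was left out (highest adjusted p 0.105 and 0.0974). Later OO chow held 65.7 and 75 CPM of Abcg5 and 79.8 and 100 CPM of Abcg8. Against it Abcg5 was at 0.80 (adjusted p = 0.0481) and Abcg8, not called, at 0.68 (adjusted p = 0.161). Slco1a4, an uptake transporter of organic anions, rose from 40.2 and 29.9 CPM to 165 and 147 CPM (log2 change 2.15, SE 0.30, adjusted p = 0.00389). That call was lost without OO library 2 (adjusted p = 0.0531). The later OO chow libraries were lower still, at 24.5 and 19.5 CPM of Slco1a4. Cyp7a1, the rate-limiting enzyme of bile acid synthesis, overlapped between groups, with 54.3 and 178 CPM in OO and 175 and 143 CPM in CCl4.

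Drug-metabolising P450 genes were called for 1 of 32 (3.12%), and 1 of 30 glutathione and NRF2 genes (Gstm3) was called (3.33%). Of all genes 2.06% were called. Among the 30 glutathione and NRF2 genes 24 were positive (median 0.42), and 13 had an unadjusted p under 0.05 (17% of all genes). DESeq2 called 8 of the 30 higher and 0 lower (2.9% and 2.6% of all genes). Among the 32 P450 genes 14 were positive (median −0.07), 9 had an unadjusted p under 0.05, and DESeq2 called 3 higher and 3 lower. Cyp2c55, a P450 known to respond to xenobiotic receptors in mouse liver, was at 3.58 and 4.31 CPM in OO and at 37.4 and 26.3 CPM in CCl4. The log2 change was 3.01 (SE 0.33, adjusted p = 0.000896), the call held whichever library was left out, and the later OO chow libraries were at 4.23 and 3.56 CPM. Cyp2b10 and Cyp3a11, target genes of the receptors CAR and PXR, did not pass, with log2 changes of 1.84 (adjusted p = 0.0508) and 1.32 (adjusted p = 0.0526). Their levels were 4.22 and 2.71 CPM in OO and 13.1 and 11.5 CPM in CCl4 for Cyp2b10. For Cyp3a11 they were 3803 and 4476 CPM in OO and 10869 and 9775 CPM in CCl4. Neither gene overlapped between groups, and both CCl4 libraries were the higher. Members of the Cyp2c family have close copies, so these values are uncertain. The sulfotransferase Sult1c2 was the called gene of its list of 20, at 1.93 and 2.24 CPM in OO and 6.2 and 11.8 CPM in CCl4 (adjusted p = 0.0139), a call lost without library 4, 1 or 2 (highest adjusted p = 0.146).

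Of 16 tested markers of the resident liver macrophage, the Kupffer cell, 3 were lower and 0 higher, with a median of −0.72 and 13 negative members. The haemoglobin-haptoglobin scavenger receptor Cd163, at chr6:124304656-124330527, was at 57.5 and 55.7 CPM in OO and at 11.2 and 12.9 CPM in CCl4. Its log2 change was −2.24 (SE 0.22, adjusted p = 0.000647), or 4.72-fold lower, and the call held whichever library was left out. The folate receptor Folr2 fell from 22 and 16.1 CPM to 8.64 and 7.32 CPM (adjusted p = 0.0133). Csf1r, the receptor for the macrophage growth factor, fell from 132 and 116 CPM to 75.2 and 72.3 CPM (log2 change −0.74, adjusted p = 0.0257). For all 3 genes every OO library lay above the CCl4 libraries. The calls for Folr2 (without 3, 4 or 1, highest adjusted p 0.172) and Csf1r (without each of the 4 in turn, 0.219) were lost. Clec4f, Cd5l and Timd4, defining Kupffer cell genes, were all detected in CCl4 livers and did not pass, at log2 changes of −0.76, −0.94 and −1.24 with adjusted p of 0.0612, 0.0584 and 0.0667. Mrc1 was at 126 and 110 CPM in OO and at 128 and 125 CPM in CCl4. Set against the later OO chow libraries, 14 of the 16 were lower, with a median of −1.30, where 2.16% of all genes were lower. The later libraries stood above those of day 0, with the summed list at 1709 and 2372 CPM in libraries 5 and 12, 1329 and 1175 CPM in day 0 OO and 958 and 904 CPM in CCl4. Library 12 was also high for the summed neutrophil (134 CPM) and exocrine pancreas (185 CPM) lists, which did not exceed 58 and 14.5 CPM in the day 0 libraries, and their part in the result was not tested. In whole liver, fewer cells of a type and less RNA per cell cannot be told apart.

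Of 15 tested genes of lipid-loaded, scar-associated macrophages, 2 were higher and 0 lower (median 0.58). Gpnmb, a transmembrane glycoprotein of such macrophages at chr6:49036546-49070929, gave 6 and 1 reads in the OO libraries and stood at 28.9 and 23.8 CPM in the CCl4 libraries. The OO levels were 0.551 and 0.0798 CPM, and the log2 change was 6.42 (SE 0.88, adjusted p = 0.00362), or 85.7-fold higher. The call was lost without OO library 2 (adjusted p = 0.0507). Later OO chow library 12 held 33.7 CPM of Gpnmb, as much as the CCl4 libraries, while library 5 held 2.41 CPM, and against these libraries the log2 change was 1.55 (adjusted p = 0.184). Ms4a7 rose from 0.826 and 0.399 CPM to 2.19 and 2.77 CPM (adjusted p = 0.0392), a call lost without each of the 4 libraries in turn (highest adjusted p = 0.248) and at −0.26 against later OO chow. Trem2 and Mmp12 did not pass, with log2 changes of 1.97 (adjusted p = 0.0586) and 5.11 (adjusted p = 0.0646). Spp1, which bile duct cells also express, ran the other way, at 205 and 88.6 CPM in OO and 47 and 47.3 CPM in CCl4 (adjusted p = 0.145). Monocyte, neutrophil and lymphocyte lists had 0 of 15, 0 of 14 and 0 of 17 genes called by edgeR. At an unadjusted p under 0.05 there were 3, 2 and 3 (17% of all genes), and DESeq2 called 1, 1 and 0 (5.5% of all genes). The day 0 medians of the 3 lists were −0.30, −0.67 and 1.15. Against the later OO chow libraries edgeR called 8 of the 15 monocyte, 2 of the 14 neutrophil and 0 of the 17 lymphocyte genes. All these calls were lower, where 2.16% of all genes were lower. The medians there were −1.20, −1.78 and 0.81, and 9, 9 and 3 genes had an unadjusted p under 0.05 (17.6% of all genes). The summed monocyte list was at 254 and 217 CPM in day 0 OO, 209 and 202 CPM in CCl4 and 363 and 737 CPM in later OO chow.

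Of 30 fibrillar collagen and matrix genes, 7 were higher and 0 lower, with a median log2 change of 1.04 and 26 positive members. Collagen III (Col3a1) rose from 73.6 and 36.9 CPM to 253 and 236 CPM (log2 change 2.15, SE 0.49, adjusted p = 0.0497). The collagen V chain gene Col5a2 rose from 13.3 and 7.35 CPM to 45.3 and 50.4 CPM (log2 change 2.22, SE 0.42, adjusted p = 0.0202). Periostin (Postn) rose from 11.9 and 7.98 CPM to 33.4 and 29.2 CPM (log2 change 1.66, SE 0.23, adjusted p = 0.00466). OO library 1 was above OO library 2 for each, and both lay below the CCl4 libraries. Thrombospondin 2 (Thbs2), laminin alpha 2 (Lama2), Col6a1 and Col6a3 completed the 7, at log2 changes between 1.49 and 1.85. Collagen I did not pass. Col1a1 was at 7.16 and 2.16 CPM in OO and at 20.5 and 24.6 CPM in CCl4 (log2 change 2.29, SE 0.64, adjusted p = 0.0884). Col1a2 was at 25.1 and 9.98 CPM in OO and at 60.4 and 55.4 CPM in CCl4 (adjusted p = 0.0867). Fibronectin (Fn1), which hepatocytes also secrete, was at 2659 and 2118 CPM in OO and at 1293 and 1388 CPM in CCl4 (adjusted p = 0.294), and the basement membrane collagens Col4a1 and Col4a2 were at log2 changes of 0.01 and −0.06.

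Whether matrix genes were called rested on which control was used. For 5 of the 7 called genes both later OO chow libraries lay below both CCl4 libraries, with Postn at 14.9 and 25.3 CPM. For some genes only library 5 did. Later OO chow library 12 held 275 CPM of Col3a1, 35.7 CPM of the uncalled Col1a1 and 14.1 CPM of the protease Mmp2. These were at or above the CCl4 livers, whereas library 5 held 98, 9.43 and 3.58 CPM. Against these 2 libraries 0 of the 30 matrix genes were called by edgeR and 6 had an unadjusted p under 0.05 against 17.6% of all genes (median 0.25), with Col3a1 at 0.57 (adjusted p = 0.577) and Postn at 0.69 (adjusted p = 0.133). Leaving out CCl4 library 3 or OO library 2 left 0 of the 30 called, leaving out CCl4 library 4 left 1, and leaving out OO library 1 left 5. In these fits 0.163%, 0.217%, 0.156% and 0.379% of all genes were higher. Col3a1 and Col5a2 were lost in each of these fits (highest adjusted p 0.278 and 0.161), Postn without 3 or 2 (0.058), and Lama2 (0.146), Thbs2 (0.0694), Col6a1 (0.223) and Col6a3 (0.116) without 3, 4 or 2.

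Enzymes that cut or process matrix gave 2 higher and 1 lower gene of 24, where 0.947% of all genes were higher and 1.11% lower. The gelatinase Mmp2, made by stellate cells, rose from 3.67 and 1.36 CPM to 14 and 12.6 CPM (log2 change 2.42, SE 0.36, adjusted p = 0.00592), a call lost without library 3 (adjusted p = 0.0596). Adamts2, which trims procollagen, rose from 6.7 and 3.99 CPM to 15 and 12.9 CPM (adjusted p = 0.0284). The leukocyte gelatinase Mmp9 fell from 2.11 and 1.68 CPM to 0.438 and 0.494 CPM (adjusted p = 0.0478). Adamts2 lost its call without 3, 4 or 2 (highest adjusted p = 0.203) and Mmp9 without each of the 4 in turn (0.308). The inhibitor Timp1 overlapped between groups, at 1.93 and 0.16 CPM in OO and 0.626 and 0.89 CPM in CCl4.

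Of 20 stellate cell and myofibroblast markers, 1 was higher and 0 lower (median 0.49). It was vimentin (Vim), at 19.2 and 10.4 CPM in OO and 39.7 and 36.3 CPM in CCl4 (adjusted p = 0.033), a call lost without 3, 4 or 2 (highest adjusted p = 0.203). Later OO chow held 31.5 and 52.6 CPM of Vim. Acta2, the smooth muscle actin of myofibroblasts, was at 7.16 and 1.76 CPM in OO and at 4.82 and 17.9 CPM in CCl4, with overlapping groups (adjusted p = 0.374). Lrat, which stores retinoids in quiescent stellate cells, was at 54.8 and 45.3 CPM in OO and at 56.2 and 52.1 CPM in CCl4. In the TGF-beta list of 20, the ligand Tgfb2 rose from 0.551 and 0.319 CPM to 1.94 and 1.98 CPM (adjusted p = 0.0417). The activin subunit Inhbe, made by hepatocytes, fell from 41.1 and 36.3 CPM to 16 and 15.3 CPM (adjusted p = 0.036). Both calls were lost without each of the 4 libraries in turn (highest adjusted p 0.249 and 0.235), and Tgfb1 did not pass (log2 change 0.79, adjusted p = 0.571).

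**Figure D4:**
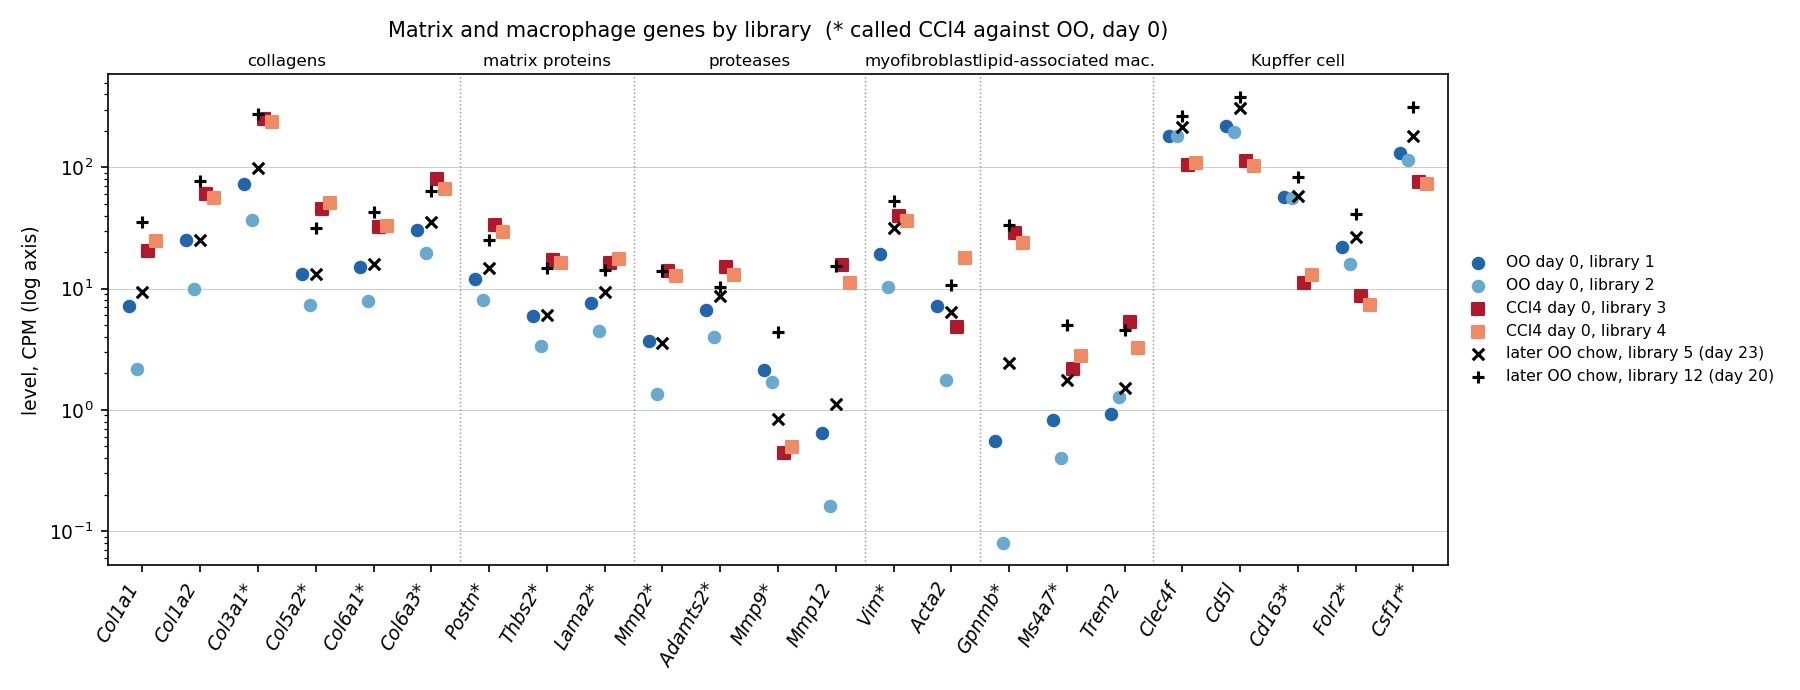
Levels of matrix, protease, myofibroblast and macrophage genes (CPM, log axis) in the 4 day 0 libraries and the 2 later OO chow libraries, with 1 symbol per library and asterisks on genes called at day 0. For Col3a1, Mmp2, Gpnmb and Mmp12, later OO chow library 12 lies at the CCl4 level and library 5 nearer to the day 0 controls. For Cd163, Folr2 and Csf1r all OO libraries lie above the CCl4 libraries.

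Cell division genes had a median log2 change of 1.26 over 30 members, 26 of them positive. By edgeR 1 was called higher (0.947% of all genes) and 13 had an unadjusted p under 0.05 (17% of all genes). DESeq2 called 11 of the 30 higher (2.9% of all genes). Against the later OO chow libraries edgeR called 0 of them, and the median was 0.21. The kinetochore gene Cenpf rose from 0.551 and 0.559 CPM to 6.76 and 4.65 CPM (log2 change 3.36, SE 0.59, adjusted p = 0.0139), a call lost without each of the 4 libraries in turn (highest adjusted p = 0.118). Mki67, the Ki-67 proliferation marker, was at 3.58 and 3.19 CPM in OO and at 19.5 and 13.3 CPM in CCl4 (log2 change 2.29, SE 0.53, adjusted p = 0.0526). Both genes were higher in both CCl4 libraries, and later OO chow held 12.2 and 19.5 CPM of Mki67. Outside the list, and named after their values were seen, the spindle genes Hmmr and Ckap2 were also called higher, with 0 reads in 1 OO library each and 3.19 and 2.27 CPM of Hmmr in CCl4 (adjusted p = 0.0139). The replication genes Mcm2, Mcm4, Pcna and Rrm2 were at log2 changes of −0.21, −0.09, 0.27 and 0.00. In the growth hormone and IGF list of 15, the binding protein gene Igfbp3 rose from 13.8 and 7.51 CPM to 32.1 and 30.9 CPM (adjusted p = 0.0109), a call lost without 3, 4 or 2 (highest adjusted p = 0.0974). In the hepcidin and iron list of 19, Id1, a target of bone morphogenetic protein signals, rose from 1.84 and 1.36 CPM to 9.58 and 9.49 CPM (log2 change 2.58, SE 0.27, adjusted p = 0.000865). Its call held whichever library was left out. Hepcidin (Hamp), another target of those signals, overlapped between groups, at 206 and 293 CPM in OO and 300 and 278 CPM in CCl4.

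Several of the largest changes lay outside the lists. Among the 12 lower genes ranked by size of change, Fitm1, an endoplasmic reticulum protein of lipid droplet formation, was at 14.3 and 15 CPM in OO and at 0.501 and 0.198 CPM in CCl4 (log2 change −5.25, SE 0.44, adjusted p = 0.000228). Nxpe2 fell from 24.3 and 29.5 CPM to 0.877 and 1.29 CPM (log2 change −4.67, SE 0.47, adjusted p = 0.000647). Susd4, a regulator of complement, fell from 20.3 and 26.4 CPM to 1.31 and 0.791 CPM (log2 change −4.41, SE 0.51, adjusted p = 0.00121). For these 3 genes the later OO chow libraries, between 18.7 and 28.3 CPM, repeated the day 0 control level, and each call held whichever library was left out. Prtn3, the neutrophil proteinase 3, fell from 23 and 6.23 CPM to 0.751 and 0.396 CPM (adjusted p = 0.0167). The summed neutrophil list was 58 and 35.1 CPM in OO and 37.1 and 25.9 CPM in CCl4, with Elane at 0.734 and 0.16 CPM in OO and 0.188 and 0 CPM in CCl4, and its part in the result was not tested. A2m, alpha-2-macroglobulin, was far highest in OO library 1, at 24.6 CPM against 1.76 CPM in OO library 2 and 0.188 and 0.396 CPM in CCl4 (log2 change −5.54, adjusted p = 0.0418). Later OO chow was at 0.26 and 0.948 CPM of A2m, near the CCl4 level, and against it the log2 change was −0.84 (adjusted p = 0.819). Prtn3 and A2m both lost their call without 3, 4 or 1 (highest adjusted p 0.178 and 0.312).

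Among the 12 higher genes, Tcf24, a basic helix-loop-helix factor gene, was at 0.551 and 0.16 CPM in OO and at 14 and 15 CPM in CCl4 (log2 change 5.36, SE 0.84, adjusted p = 0.0077). Ntrk2, which encodes the neurotrophin receptor TrkB, rose from 0.551 and 0.319 CPM to 12.3 and 10.1 CPM (log2 change 4.68, SE 0.81, adjusted p = 0.0129). Esm1, the endothelial proteoglycan endocan, rose from 0.642 and 0.24 CPM to 7.14 and 8.31 CPM (adjusted p = 0.0192). The 2 CCl4 libraries agreed for each, and the OO libraries were near 0. Later OO chow was at 0.195 and 0.158 CPM for Tcf24, as low as at day 0, but at 0.975 and 4.58 CPM for Ntrk2 and at 3.64 CPM in both libraries for Esm1. Sytl5, a Rab27-binding protein of vesicle traffic, rose from 0.642 and 0.878 CPM to 12.1 and 11.3 CPM (adjusted p = 0.00302). Raet1d, a stress ligand of the killer cell receptor NKG2D, rose from 3.3 and 1.44 CPM to 25.7 and 24.7 CPM (adjusted p = 0.00494). The syntaxin-binding gene Stxbp5l (adjusted p = 0.00564) and the C-type lectin gene Clec2h (adjusted p = 0.00554) rose 9.59-fold and 6.26-fold. Of these, the Sytl5 call held whichever library was left out. Tcf24, Ntrk2 and Esm1 lost theirs without each of the 4 in turn (highest adjusted p 0.0917, 0.123 and 0.162), Clec2h without 3, 4 or 2 (0.0699), Raet1d without 2 (0.0578) and Stxbp5l without 3 (0.0596).

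The chemokine, interferon and antigen presentation genes called by edgeR were all lower, where 1.11% of all genes were lower. The lists as a whole were mixed, with medians of 0.14, −0.11 and −0.14. Positive members were 10 of 18, 9 of 21 and 7 of 17. DESeq2 called 0, 0 and 2 of them higher and 3, 2 and 2 lower (2.9% and 2.6% of all genes). The chemokine genes Cxcl14 and Ccl6 fell from 14.8 and 6.31 CPM to 1.75 and 0.494 CPM, and from 33.7 and 19.2 CPM to 6.82 and 5.44 CPM (adjusted p 0.0145 and 0.03), 2 of 18 in their list. Of 21 interferon-stimulated genes, the GTPase genes Irgm1 and Ifi47 were lower, at log2 changes of −0.65 and −0.90 (adjusted p 0.0305 and 0.0396). Classical type I interferon targets such as Ifit1 and Isg15 did not pass, at 0.19 and −0.19. Tap1, the peptide transporter of antigen presentation, fell from 32.8 and 32.6 CPM to 19.7 and 21.5 CPM (adjusted p = 0.0317), 1 of 17 in its list. Cxcl14 lost its call without 4 or 1 (highest adjusted p 0.146), Ccl6 without 3, 4 or 1 (0.23), and Irgm1 (0.252), Ifi47 (0.286) and Tap1 (0.277) without each of the 4 in turn.

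In all, 28 of the 50 lists held a called gene and 22 held none. Those 22 covered 343 tested genes, of which 67 had an unadjusted p under 0.05 (17% of all genes) and 21 were called by DESeq2 (5.5% of all genes), both shares near those of all genes. Lists with no call included those for cholangiocytes (14 tested), sinusoidal endothelium (17), p53 targets (20), coagulation (21), cholesterol synthesis (25) and female-biased growth hormone targets (16). The fetal marker Afp was at 7.07 and 7.51 CPM in OO and 4.26 and 3.07 CPM in CCl4, and the p53 target Cdkn1a was at 3.21 and 3.27 CPM in OO and 1.5 and 1.98 CPM in CCl4. Neither passed, with adjusted p of 0.423 and 0.509. Afp and Cdkn1a showed the lowest log2 changes of their lists, −0.98 and −0.92, and do not stand for them. Most fetal genes went the other way, 10 up and 2 down among 12 tested, and the median log2 change was 0.78. DESeq2 called 2 fetal genes higher and 0 lower. The 20 p53 targets were mixed, 8 up and 12 down, and their median was −0.01. Of these, DESeq2 called 0 higher and 1 lower.

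**Figure D5:**
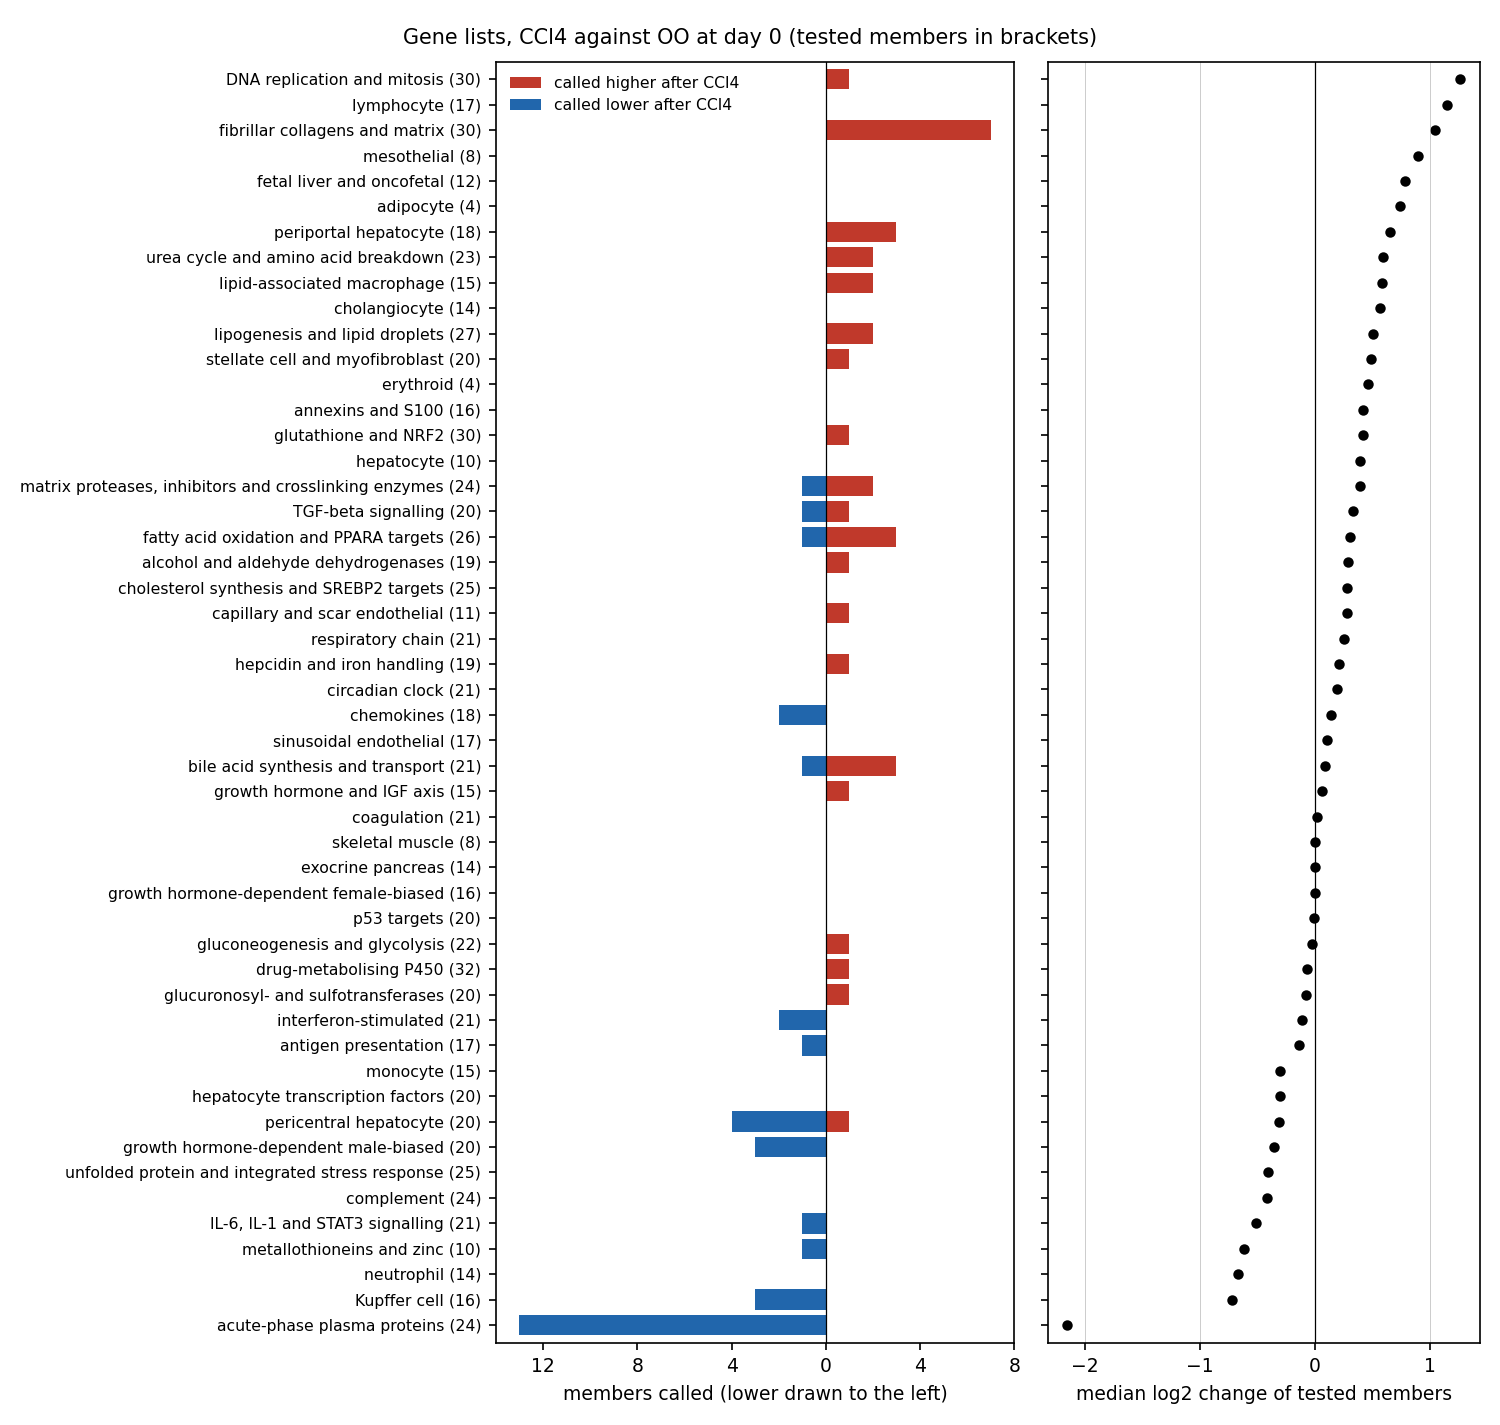
Called members (left, higher to the right in red and lower to the left in blue) and median log2 change of the tested members (right) for the 50 gene lists, ordered by the median, with the number of tested members in brackets. The acute-phase list has the lowest median (−2.15) and the most lower genes (13), and the matrix list has the most higher genes (7).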

How the data were processed

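Whole-liver messenger RNA was sequenced in 15 libraries. The authors deposited raw read counts per gene symbol for each library, made with GSNAP on mm10, per the submitters' processing notes, which also name DESeq2 1.12.3. Not given in the sources used here are the counting program, the annotation and whether strand was used. The 5 entries for reads given to no gene were left out, and they held 51% to 58.6% of the reads listed in the day 0 libraries.

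Counts were filtered with filterByExpr (14778 of 24499 genes), scaled by TMM and modelled in edgeR 4.0.16 (R 4.3.3). Each of the 8 groups of all 15 libraries had its own mean, leaving 7 residual degrees of freedom. CCl4 day 0 was tested against OO day 0 by the quasi-likelihood test with Benjamini-Hochberg adjustment. A gene is called where its adjusted p is under 0.05. The SE is the log2 change divided by the square root of the F statistic. A missing library leaves 1 sample in its group, assumed to vary like the others. On simulated data for this comparison (14422 genes), 49% of 100 genes changed 2-fold and 97% of 100 changed 4-fold were called, and 5.19% of calls were false. The changed genes averaged at least 5 CPM, the spread was that fitted to the real data, and all other groups were left unchanged. Real changes of 4-fold were not always called, such as Socs3, 4.76-fold lower.

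Named genes are, in each direction, up to 12 called genes of largest change that reach 5 CPM in a group without overlap between groups (leaving out Mup genes, transcripts without a name and antigen receptor segments), up to 4 called members with the smallest adjusted p from each list with at least 2, and 26 fixed genes. Other list members are given as examples and were chosen after their values were seen. The members and the 50 lists were chosen with earlier results of these data known. Coordinates are from GENCODE M21 (mm10), where 14371 symbols matched. Alternatives were other scaling and filters, DESeq2 1.42.0, limma-voom (limma 3.58.1), a tested fold of 1.5, fewer libraries, later OO chow libraries as controls and each library left out. Counting depth limits genes of a few reads.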

Additional observations from a re-analysis of the deposited data

How the results depend on the processing

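The count of calls (304, with 140 higher and 164 lower) stayed within 1.5 times under RLE scaling, no filter, a 1 CPM filter, limma-voom with or without lane as a block, and without libraries 6 and 12. DESeq2 gave 730 calls, 385 higher (2.9% of genes) and 345 lower (2.6%). It called 22 of 24 acute-phase genes lower, and of 30 matrix genes 15 higher and 1 lower. A fit of the 4 day 0 libraries alone gave 2240 (1060 higher, 1180 lower), and a fit of the 8 day 0 and chow libraries gave 799 (400 higher, 399 lower). These fits estimate the spread from fewer groups, or shrink it differently. A tested fold of 1.5 left 98 (35 higher, 63 lower). With the later OO chow libraries as controls there were 469 calls, 319 of them lower. Leaving out a library gave 52 to 121 calls, 23 to 56 of them higher and 29 to 88 lower, and an arm then has 1 library. Of the 63 called genes named by the rule, 15 were called in all 4 of those fits and 22 in none. No call of a named gene reversed except against the later OO chow libraries, where Cyp7b1 was at 0.14, Elovl5 at −0.25 and Ms4a7 at −0.26. Uncalled genes also changed sign there: Cyp7a1 to −0.56, Hamp to −0.11, Tgfb1 to −0.69 and Timp1 to 0.08. Timp1 was at 0.36 with limma-voom and 0.55 with the lane block. Without OO library 1, Cyp7a1 was at −0.16, Hamp at −0.02 and Timp1 at 2.16, and without OO library 2, Hamp was at 0.49 and Timp1 at −1.37. The causes were not tested. No paired analysis was possible because the day 0 libraries carry 4 different numbers, so no number is shared between the groups. Low counts limit Gpnmb, Tcf24, Cenpf and Ms4a7 in the OO libraries.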

Other observations

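The OO libraries of day 0 stood further apart than the CCl4 libraries in genes of the endoplasmic reticulum stress response. Hspa5, the main chaperone of that compartment, was at 1422 and 3397 CPM in OO libraries 1 and 2 and at 1450 and 1409 CPM in CCl4. Creld2 was at 66.2 and 208 CPM in OO and at 49.5 and 46.2 CPM in CCl4, and Derl3 at 2.39 and 17.2 CPM in OO and at 2.13 and 2.67 CPM in CCl4. OO library 2 was the high library for each, and library 1 lay near the CCl4 level for Hspa5 and Derl3. Of the 25 genes of the list, edgeR and DESeq2 each called 0, and 5 had an unadjusted p under 0.05 (17% of all genes).

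All 21 respiratory chain genes had a positive log2 change, with a median of 0.25. By edgeR 0 were called and 2 of the 21 had an unadjusted p under 0.05 (17% of all genes), and DESeq2 called 0 (5.5% of all genes). Their summed level was 4891 and 5561 CPM in OO, 6476 and 6170 CPM in CCl4 and 4887 and 4138 CPM in later OO chow. Of 20 hepatocyte transcription factor genes, 17 were negative. By edgeR 0 were called and 7 of the 20 had an unadjusted p under 0.05 (17% of all genes), and DESeq2 called 3 (5.5% of all genes). Cebpa was at 205 and 210 CPM in OO and at 146 and 139 CPM in CCl4 (adjusted p = 0.0627), and Cebpb at 23.5 and 26 CPM in OO and at 11.9 and 8.6 CPM in CCl4 (adjusted p = 0.0942). The mesothelial gene Msln was at 3.76 and 0.399 CPM in OO and at 6.26 and 1.48 CPM in CCl4. The duct keratin Krt19 was at 3.03 and 1.2 CPM in OO and at 3.01 and 10.4 CPM in CCl4. Msln was thus high in libraries 1 and 3, and Krt19 in library 4.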
